A study of Mus musculus with 8 samples.

Results

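The distal end of mouse chromosome 12 carries the immunoglobulin heavy locus, and RNA from genes of this region was measured in lumbar dorsal root ganglia (DRGs) of Fabry disease (FD) model mice and wildtype mice. The window was set by position: every non-control probe of the array that the scanner files place on chromosome 12 between 113000000 and 121300000 (genome build mm9) was taken, apart from 27 probes named only by a genome interval. It held 239 of the 55681 probes of the array. The window itself was chosen from the log2 differences between FD and wildtype in these samples, so the differences of its members, and which of them passed a fit across the whole array, are given as a description and are no test of the window.

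FD mice were male α-Gal A(-/0) animals that lack the lysosomal enzyme α-galactosidase A, which splits glycosphingolipids, in every cell of the body. Wildtype mice were males with an intact gene. Both groups carry the strain label C57BL/6J, while the methods give the background of the FD mice as C57BL/6. All mice were 20 to 24 weeks of age. The tissue was lumbar DRGs L3 to L5, where the sensory neurons of the hind paw have their cell bodies, and each of the 4 samples per group pooled the ganglia of 2 mice. The methods state that the array mice came from separate inbred colonies, so genotype and colony cannot be told apart in any value below. Backcrossed α-Gal A(-/0) mice were used in the study only for a separate quantitative PCR, to control for colony effects. Its values are not reported here. All 8 samples were hybridised in 1 color to the arrays of 1 slide of the Agilent SurePrint G3 Mouse design.

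The heavy locus encodes the heavy chains of antibodies. Its constant genes each define an antibody class, among them Ighm for IgM, Ighd for IgD, the Ighg genes for the IgG subclasses, Ighe for IgE and Igha for IgA. A large array of variable segments, named Ighv, lies on the far side of Ighm, and B cells join 1 of them to short diversity and joining segments before the chain can be made. Plasma cells, which arise from B cells, transcribe the rearranged gene at very high rates, while neurons and glia do not rearrange it. Inbred mouse strains carry different allelic versions of the locus, and the IgG2a gene of BALB/c mice has Ighg2c as its counterpart in C57BL/6 mice. On either side of the locus lie genes with roles elsewhere, such as Akt1, a kinase of growth factor signaling, Jag2, a Notch ligand, and Ncapg2, a condensin subunit.

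The probes on which the antibody results turn are shown first, since each value is the hybridisation of RNA to 1 such sequence of 60 bases. Sequences are those of the scanner files, 5′ to 3′, all in lower case with no part marked. They lie on the minus strand of chromosome 12 in mm9, apart from the last, which the files place nowhere. Ighm lies at chr12:114659630-114659689, the proximal IgG2a probe at chr12:114525600-114525659, Ighg2b at chr12:114544738-114544797, Ighg1 at chr12:114568594-114568653, Igha at chr12:114497090-114497149 and the variable segment Ighv1-64 at chr12:116745936-116745995.
Ighm: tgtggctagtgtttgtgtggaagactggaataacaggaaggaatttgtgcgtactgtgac
IgG2a, proximal probe: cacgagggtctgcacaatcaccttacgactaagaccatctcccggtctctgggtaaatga
Ighg2b: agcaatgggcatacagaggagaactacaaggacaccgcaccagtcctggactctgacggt
Ighg1: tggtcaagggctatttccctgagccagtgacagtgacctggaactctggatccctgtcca
Igha: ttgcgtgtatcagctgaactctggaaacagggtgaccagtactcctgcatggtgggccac
Ighv1-64: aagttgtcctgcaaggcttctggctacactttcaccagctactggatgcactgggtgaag
BALB/c heavy chain: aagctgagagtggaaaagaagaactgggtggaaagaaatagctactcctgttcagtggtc

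All levels are log2 signals, that is, the log2 of the background-adjusted intensity of a probe after quantile normalization between arrays, and differences are FD minus wildtype on the same scale. The share of probes well above background ran from 56.5% to 60.8% over the arrays, and the comparison was fitted with limma on the 29432 probes that passed on all 8 arrays. A probe is called when its adjusted p in that fit is under 0.05. Of all tested probes 3.07% were called, 1.96% as higher and 1.11% as lower in FD, and the median difference was 0.02. Markers of sensory neurons were among the brightest probes, with Calca at mean log2 signals of 17.55 in FD and 17.41 in wildtype, and 0 of 7 were called by limma (2 had an unadjusted p under 0.05, and the methods' t-test called 0). The only probe of Gla, the gene for α-galactosidase A, had log2 signals of 16.71, 16.51, 16.51 and 16.62 in FD samples 1 to 4 and of 16.69, 16.72, 16.49 and 16.56 in wildtype samples 1 to 4. The place of the disruption is not given in the sources used here, so this probe does not check the genotype labels. In these bulk samples, fewer cells of a type and less RNA per cell cannot be told apart. Whether each probe matches the sequence of both colonies equally well was not tested.

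Of the 239 probes of the window, 80 were well above background on all 8 arrays and were tested, 57 passed on some arrays, and 102 passed on none. Of the 80, 12 were called, 4 higher and 8 lower in FD, which is 15% of those tested beside 3.07% of all tested probes. They came from 10 genes. The probes named IgG2a and those of Ighm, 2310058N22Rik and Tedc1 held the largest falls, Ncapg2 and Crip1 the largest rises, and 6 of the 12 differed by more than 1 log2 unit. The FD arrays lay wholly above the wildtype arrays for 6 of the 80 probes and wholly below for 12, where 8.3% and 5.1% of all tested probes did so. Among the 68 probes that were not called, the median size of the difference was 0.12, close to the median size of 0.10 over all tested probes.

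**Figure D1:**
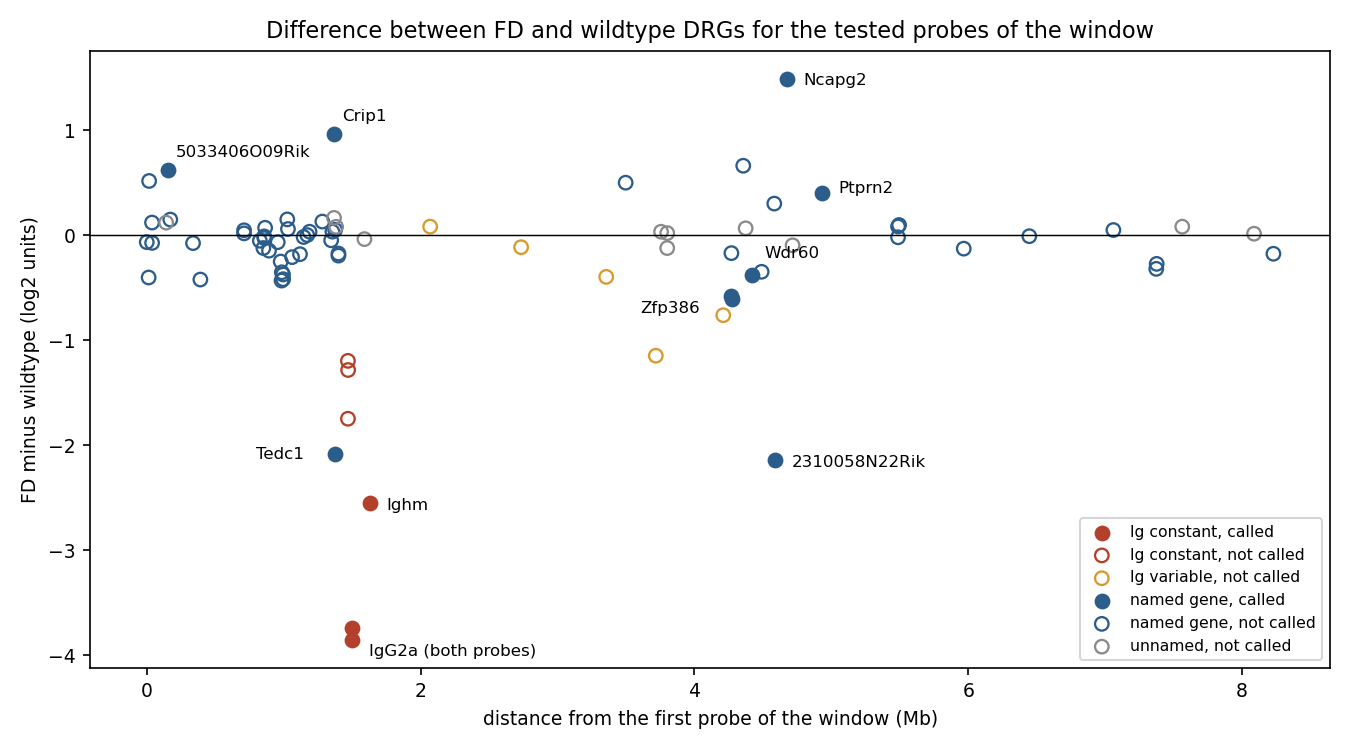
Difference between FD and wildtype DRGs (log2 units) for the 80 tested probes of the window, by distance in Mb from its first probe. Filled points are called probes, colors mark the class of the gene, and the antibody constant genes hold the lowest values, down to -3.85 for IgG2a.

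Every tested probe of an antibody constant gene had a lower mean in FD than in wildtype. There were 13 probes for them, 6 were tested, 3 of these were called as lower, and all 6 differences were negative, with a median of -2.15 beside 0.02 over all tested probes.

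Ighm, which encodes the constant part of IgM, had log2 signals of 7.14, 6.97, 6.98 and 7.26 in FD samples 1 to 4. The 4 wildtype samples lay at 9.66, 9.82, 9.51 and 9.57. The groups were 2.25 log2 units apart at their nearest samples, and within each group the SD was 0.14 (n = 4). The difference was -2.55 ± 0.09 (SE), or 5.87-fold.

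Both probes that the files name for serum IgG2a showed the largest falls of the window. They lie beside Ighg2c in mm9, and which gene they read in these mice could not be settled from the files, so IgG2a is here the name of the probes. The proximal probe had log2 signals of 7.09, 6.22, 7.83 and 7.59 in FD and of 11.00, 11.87, 10.69 and 10.57 in wildtype. FD sample 2 was the lowest and wildtype sample 2 the highest, and the groups were 2.74 log2 units apart. The difference was -3.85 ± 0.38 (SE), or 14.4-fold. The distal probe, which starts at 114525496 and lies nearer to the end of the transcript, had 7.44, 6.21, 8.44 and 7.91 in FD and 11.11, 12.35, 10.73 and 10.78 in wildtype. It was lower by 13.4-fold (-3.74 ± 0.51, SE), with the same samples at the extremes. A probe at 114523536 named for the membrane end of Ighg2c was at background on all 8 arrays.

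The other IgG subclasses were near background in FD and gave only partial measurements. Ighg2b had log2 signals of 6.11, 4.01, 6.74 and 6.53 in FD, where 3 of 4 arrays were well above background, and of 9.09, 10.70, 8.33 and 8.14 in wildtype, where all 4 were. Ighg1 was not well above background on any FD array and passed on all 4 wildtype arrays, at 7.0, 7.86, 6.37 and 6.44. Its signal was at least 5.12-fold lower in FD, measured against the lowest signal that passed on each FD array. A second Ighg1 probe and the Ighg3 probe passed only on wildtype sample 2, at 7.22 and 5.97.

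Igha, the constant gene of IgA, had 3 tested probes, and they were not called. At the probe that starts at 114497090 the log2 signals were 10.24, 9.43, 9.68 and 10.78 in FD and 11.85, 13.20, 11.04 and 11.03 in wildtype. These groups did not overlap, and the difference was -1.75 ± 0.49 (SE). At the brightest probe FD sample 4 reached 12.55, above wildtype samples 3 and 4 at 12.32 and 12.28, so the groups overlapped there (-1.19 ± 0.48). The remaining probe gave -1.28 ± 0.55, also with overlap. Ighd, for IgD, passed on 1 wildtype array and no FD array, and Ighe, for IgE, passed on none.

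**Figure D2:**
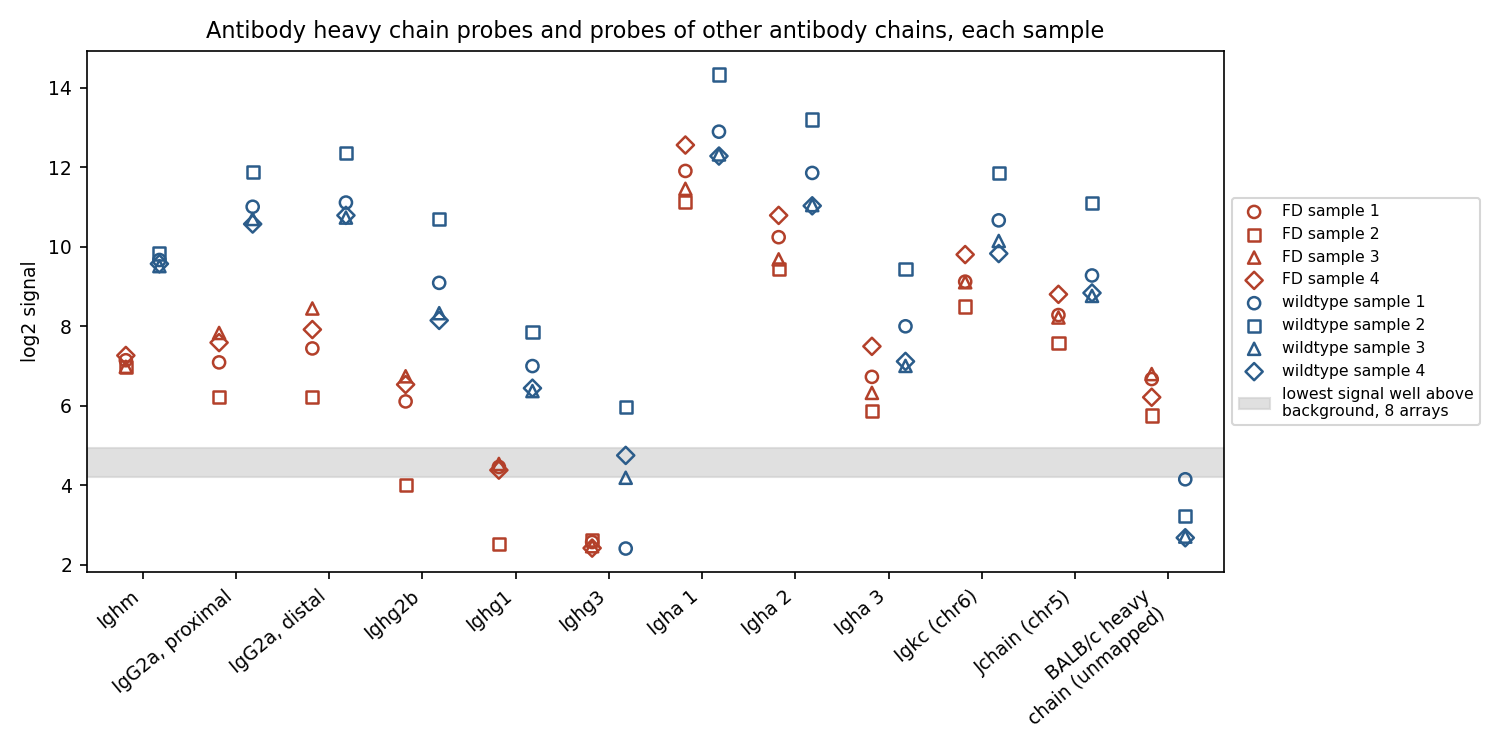
Log2 signal of each sample for probes of antibody heavy chains and of other antibody chains (Igkc, Jchain and the unplaced BALB/c heavy chain), with the sample number as the marker shape and FD in red. The grey band spans the lowest signal well above background on each of the 8 arrays, and wildtype sample 2 is the highest sample of every tested heavy constant probe.

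Wildtype sample 2 was the highest of the 8 samples for 6 of 6 tested constant probes, 4 of 5 tested variable segments and 8 of 11 tested light chain probes, but for 16 of the 69 other tested probes of the window. Without that sample the differences were -2.49 for Ighm, -3.57 and -3.37 for the proximal and distal IgG2a probes and -0.74 to -1.27 for Igha, and the 3 calls were kept. Each Igha probe spanned more between the wildtype samples than the size of its group difference, while Ighm spanned less.

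Variable segments were mostly at or near background. The window held 94 probes for them, with 84 segment names, and 54 passed on no array. On single arrays 13, 13, 9 and 17 of the 94 were well above background in FD samples 1 to 4, and 22, 32, 11 and 13 in wildtype samples 1 to 4. The highest counts were those of wildtype samples 1 and 2, and the other 2 wildtype samples lay within the FD range. Of the 35 segments that passed on some arrays, 24 passed on more wildtype arrays, 7 on more FD arrays and 4 on equal numbers. Only on wildtype arrays 15 probes passed, and only on FD arrays 4 did.

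On all 8 arrays 5 segments passed, and limma called 0 of them (2 had an unadjusted p under 0.05, and the methods' t-test called 0). Ighv1-64 had log2 signals of 5.07, 5.06, 5.24 and 5.11 in FD and of 6.10, 7.40, 5.62 and 5.95 in wildtype. The groups did not overlap, the FD samples lay close together, and the difference was -1.15 ± 0.33 (SE). It was -0.77 and called when wildtype sample 2 was left out. The differences of the others were -0.76 for Ighv1-85, -0.39 for Ighv1-52, -0.11 for Ighv10-3 and 0.08 for Ighv5-17, all with overlapping groups. Without wildtype sample 2 they were -0.47 for Ighv1-85, -0.06 for Ighv1-52, -0.14 for Ighv10-3 and 0.29 for Ighv5-17.

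Other segments passed on all arrays of 1 group only. Ighv14-3 and Ighv1-67 passed on 4 wildtype and 2 FD arrays, and a heavy chain cDNA at 115850457 passed on 4 wildtype and 3 FD arrays. Ighv1-20 ran the other way, with log2 signals of 5.47, 5.70, 5.49 and 6.41 in FD and of 4.78, 6.15, 4.06 and 4.65 in wildtype, where 2 arrays passed. Ighv1-39 passed on 4 FD arrays and on wildtype sample 2 alone, which at 6.35 was above every FD sample. Among the 40 segment probes that passed on any array, 4 had every FD sample below every wildtype sample and 0 had every FD sample above, beside 4.45% and 7.27% of all probes of the array that passed on any array.

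**Figure D3:**
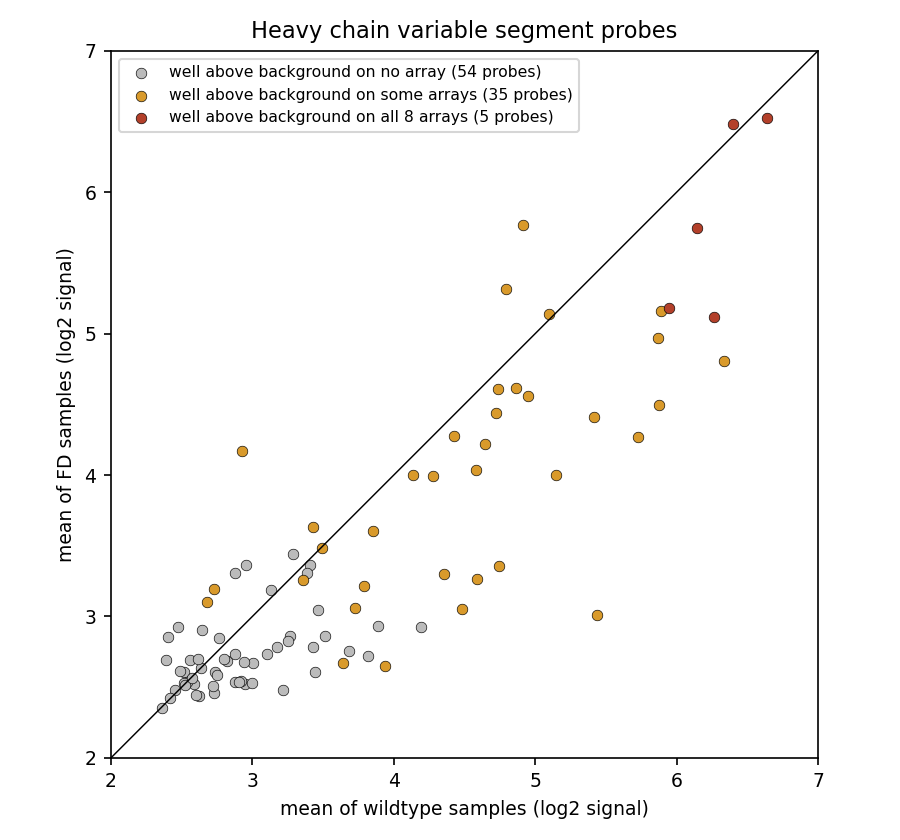
Mean log2 signal of the FD samples against that of the wildtype samples for the 94 variable segment probes, colored by the number of arrays on which each was well above background. The line marks equal means, and most of the 35 probes that passed on some arrays lie below it, on the side of higher wildtype signal.

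Antibody chain probes outside the window and markers of the cells that make antibodies were set beside the locus. A probe for a heavy chain mRNA from BALB/c mice, which the files place on no chromosome, showed the opposite direction. It was well above background on all 4 FD arrays, at 6.67, 5.75, 6.79 and 6.21, and on no wildtype array, where its signals were 4.15, 3.22, 2.71 and 2.68. Its signal was at least 3.02-fold higher in FD. Whether it reads an allelic counterpart of the gene read by the IgG2a probes was not tested. On the whole array 69 probes, or 0.124%, passed on all FD arrays and no wildtype array. This probe and the light chain genes named here were chosen after their values were seen.

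Light chains pair with heavy chains in every antibody, and their genes lie on chromosomes 6 (kappa) and 16 (lambda). limma called 0 of 8 tested kappa probes (2 had an unadjusted p under 0.05) and 0 of 3 tested lambda probes (0 under 0.05), and the methods' t-test called 0 of either. Igkc, the kappa constant gene, had log2 signals of 9.12, 8.49, 9.10 and 9.80 in FD and of 10.66, 11.85, 10.14 and 9.82 in wildtype. The groups came within 0.03 log2 units of each other without overlap, the difference was -1.49, and the adjusted p of limma was 0.117. Iglc2, a lambda constant gene, differed by -0.73 and -0.76 at its 2 probes, and by -0.04 and -0.08 without wildtype sample 2.

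Among 8 plasma cell markers, 4 were tested and limma called 0 (1 had an unadjusted p under 0.05, and the methods' t-test called 0), with a median difference of -0.10. Jchain, which links the units of IgA and IgM, had log2 signals of 8.28, 7.58, 8.22 and 8.80 in FD and of 9.27, 11.10, 8.76 and 8.83 in wildtype. The groups overlapped, and the difference was -1.27 ± 0.50 (SE; limma adjusted p = 0.233), or -0.74 without wildtype sample 2. Mzb1 passed on 1 FD and 4 wildtype arrays, Pou2af1 on 1 and 3, and Tnfrsf17 and Irf4 on none. The summed level of the list was 10.19 to 10.71 in FD and 10.35 to 11.76 in wildtype.

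Among 12 B cell markers, 8 were tested, with a median difference of 0.01, and Blnk alone was called. Blnk, an adaptor of B cell receptor signaling that other immune cells also express, was higher in FD, at 11.22, 10.90, 11.11 and 10.88 against 10.29, 10.06, 9.64 and 10.13 (limma adjusted p = 0.00772). Cr2, a complement receptor of B cells, was at 8.23, 8.13, 8.51 and 8.38 in FD and at 7.59, 7.99, 7.89 and 7.91 in wildtype, so the groups did not overlap. Its difference of 0.46 was not called (limma adjusted p = 0.0618), but it was called with normexp background correction, with array weights and with the slide row as a block (limma adjusted p = 0.0306, 0.035 and 0.0403). Cd22 and Cd79b, both tied to the B cell receptor, differed by 0.13 and -0.28 and were not called. Ms4a1 passed on 2 FD and 4 wildtype arrays, and Pax5 on none. The summed level of the list was 11.72 to 11.96 in FD and 11.16 to 11.46 in wildtype. Blnk, the brightest member of the list, is included in this sum, which weighs bright members most. What part the number of B cells or plasma cells had in the antibody differences was not tested.

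Lists for other cells of the ganglion held no call. They were 0 of 2 for T cells, satellite glia and Schwann cells, 0 of 4 for macrophages and 0 of 3 for red blood cells in limma, with 0, 0, 1, 2 and 2 at an unadjusted p under 0.05 and 0 in the methods' t-test. Among the macrophage markers, Cd68 differed by 0.51, with every FD sample above every wildtype sample. Aif1 and Csf1r differed by -0.46 and -0.11, with overlapping groups. The 3 red blood cell markers, which follow the amount of blood in the tissue, all had negative differences between -0.53 and -0.40. Their summed level was 14.06 to 14.77 in FD and 14.57 to 15.07 in wildtype, and its part in the antibody values was not tested. For 8 Fc receptors and other antibody-binding proteins, limma called 0 (2 had an unadjusted p under 0.05, the methods' t-test called 0), with a median of -0.14. Pigr, which carries IgA and IgM across epithelia, and Fcgrt, which protects IgG from breakdown, differed by -0.28 and -0.13. The tested probe named Pigr is placed on chromosome 3, with mean log2 signals of 15.74 in FD and 16.02 in wildtype. Whether it reads Pigr was not tested.

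On the side of the locus nearer to the centromere, 41 of 53 probes were tested. Of these 3 were called, 2 higher and 1 lower in FD, which is 7.32% beside 3.07% of all tested probes. Between Klc1 and Crip2 1 of 34 tested probes was called, or 2.94%, close to the share over all tested probes. Crip1 and 1 of the 2 Tedc1 probes, which start 11.6 kb apart, were called in opposite directions.

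Crip1, a small protein with a LIM zinc-binding domain, had log2 signals of 14.46, 14.35, 14.56 and 14.45 in FD and of 13.42, 13.70, 13.41 and 13.40 in wildtype. The groups were 0.64 log2 units apart, and Crip1 was 1.96-fold higher in FD (0.97 ± 0.08, SE). Its relative Crip2, 8.37 kb away, differed by 0.04, with mean log2 signals of 16.98 in FD and 16.94 in wildtype.

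Tedc1, a component of the complex that holds delta and epsilon tubulin at centrioles, gave different readings from its 2 probes, which share 31 of their 60 bases. The probe that starts at 114403609 had log2 signals of 6.39, 6.34, 6.14 and 5.92 in FD and of 8.17, 8.15, 8.40 and 8.42 in wildtype. It was lower in FD by 4.24-fold (-2.09 ± 0.12, SE), and the groups were 1.76 log2 units apart. The probe that starts at 114403580 had 9.74, 9.76, 9.62 and 9.61 in FD and 9.50, 9.64, 9.71 and 9.67 in wildtype, with overlap and a difference of 0.05. The 29 bases that each probe holds alone are shown because the readings part between them. Both lie on the plus strand, at the start of chr12:114403580-114403639 and at the end of chr12:114403609-114403668.
Tedc1, probe without a difference: ggaagggaagtttagtaattccaactctt
Tedc1, lower probe: acattaataagatgtgtctcaatggcgga

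The long non-coding RNA 5033406O09Rik was the third called gene on this side. Its log2 signals were 6.34, 6.12, 6.43 and 6.55 in FD and 6.02, 5.55, 5.75 and 5.63 in wildtype. The groups were separated by 0.11, and the RNA was 1.54-fold higher in FD (0.63 ± 0.12, SE). Its tested neighbors Ppp1r13b and Atp5mpl, a subunit of ATP synthase, differed by -0.07 and 0.15.

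Several genes here with known roles in neurons or signaling were not called. Akt1 differed by 0.07 at a mean log2 signal of 14.51 in FD, and limma called 0 of 9 genes of its pathway list (1 had an unadjusted p under 0.05, the methods' t-test called 0; median -0.08). Jag2 differed by -0.18, and 0 of 16 tested Notch pathway genes were called (3 and 0; median -0.06). Kif26a, a member of the kinesin family, was lower in all 4 FD samples, at 8.17, 8.26, 8.09 and 7.89 against 8.52, 8.46, 8.69 and 8.42 (-0.42 ± 0.09, SE), and was not called, though it was with 75th percentile scaling, normexp background correction or array weights. The 4 probes of Ahnak2, a large scaffold protein, ranged from -0.43 to -0.35 and were not called either, but 2 of them were with the slide row as a block.

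On the far side of the locus, 6 of 23 tested probes were called, or 26.1% beside 3.07% of all tested probes. All 6 lay within the first 0.663 Mb, between Zfp386 and the first Ptprn2 probe, where 12 of 15 probes were tested. The 4 called probes nearest to the locus were lower in FD, and the 2 beyond them were higher.

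Zfp386, a zinc finger protein, was the nearest gene to the variable segments. At the probe that starts at 117298639 its log2 signals were 10.66, 10.75, 10.74 and 10.84 in FD and 11.13, 11.53, 11.34 and 11.31 in wildtype. It was 0.58 ± 0.09 (SE) log2 units lower in FD (-0.58), without overlap. A second probe, at 117298954, had 11.70, 11.65, 11.91 and 11.79 in FD and 12.03, 12.60, 12.44 and 12.40 in wildtype (-0.61 ± 0.12). The remaining probe, at 117298066, differed by -0.17 and was not called. The sequence of the first probe, at chr12:117298639-117298698 on the plus strand, is shown as it encodes part of a zinc finger and related stretches recur in other zinc finger genes.
Zfp386: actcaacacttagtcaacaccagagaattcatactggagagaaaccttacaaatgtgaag

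Wdr60, an intermediate chain of the dynein-2 motor of cilia, had log2 signals of 8.71, 8.69, 8.78 and 8.72 in FD and of 9.08, 9.03, 9.11 and 9.16 in wildtype. The fall of 0.37 was small (-0.37 ± 0.05, SE), but the groups were 0.25 apart and the SD was 0.04 in FD and 0.06 in wildtype (n = 4 each). Of the 8 tested genes of the dynein-2 and tubulin delta complex list Wdr60 alone was called, with each gene taken at its brightest probe, and the median was 0.02. Wdr34 and Dync2h1, other parts of the same motor, differed by 0.03 and 0.01.

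The transcript 2310058N22Rik, a cDNA that the files give as unclassifiable, had log2 signals of 8.62, 8.30, 8.35 and 8.24 in FD. In wildtype they were 10.43, 10.57, 10.59 and 10.48. The groups were 1.82 log2 units apart, and the transcript was 4.42-fold lower in FD (-2.14 ± 0.09, SE). Its neighbor Esyt2, which ties the endoplasmic reticulum to the plasma membrane, starts 8.04 kb away and was not called, although every FD sample was above every wildtype sample (11.78, 11.72, 11.92 and 11.80 against 11.40, 11.63, 11.53 and 11.45, a difference of 0.30 ± 0.07). limma called 0 of the 3 extended synaptotagmins (1 had an unadjusted p under 0.05, the methods' t-test called 0), with a median of 0.10.

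Ncapg2, a subunit of the condensin II complex that compacts chromosomes, was the largest rise of the window. Its log2 signals were 9.18, 9.23, 9.39 and 9.31 in FD and 7.56, 7.75, 7.97 and 7.86 in wildtype. The groups were 1.21 apart, and Ncapg2 was 2.81-fold higher in FD (1.49 ± 0.09, SE). The other 6 tested condensin subunits, Smc4 and Ncaph2 among them, ranged from -0.19 to 0.18 and were not called, and the median of the list was -0.01. Of 5 tested mitosis genes Cdk1 was called as lower (-0.45, limma adjusted p = 0.0354), at mean log2 signals of 4.84 in FD and 5.29 in wildtype that lie close to background. Birc5 and Plk1 differed by 0.06 and -0.05, Mki67 by -0.46 (limma adjusted p = 0.0605) at its brightest probe, and the median was -0.05. Another Mki67 probe, at -0.64, was called.

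Ptprn2, a membrane protein of secretory vesicles, was called as higher at the probe that starts at 117960601. Its log2 signals were 7.0, 7.03, 6.80 and 6.77 in FD and 6.58, 6.54, 6.39 and 6.46 in wildtype, a difference of 0.40 ± 0.08 (SE). The 2 other probes, at 118515207 and 118515222, differed by -0.02 and 0.09. The groups overlapped at both.

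Vipr2, a receptor for the neuropeptides VIP and PACAP, lies in the same stretch and was not called. It had 6.90, 6.80, 6.79 and 6.78 in FD and 5.95, 5.71, 6.92 and 6.02 in wildtype, where sample 3 stood at the FD level. The difference was 0.66 ± 0.23 (SE), and the gene became called without that sample. Of the 4 tested genes of the VIP and PACAP list limma called 0 (3 had an unadjusted p under 0.05, the methods' t-test called 0), with a median of 0.22.

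**Figure D4:**
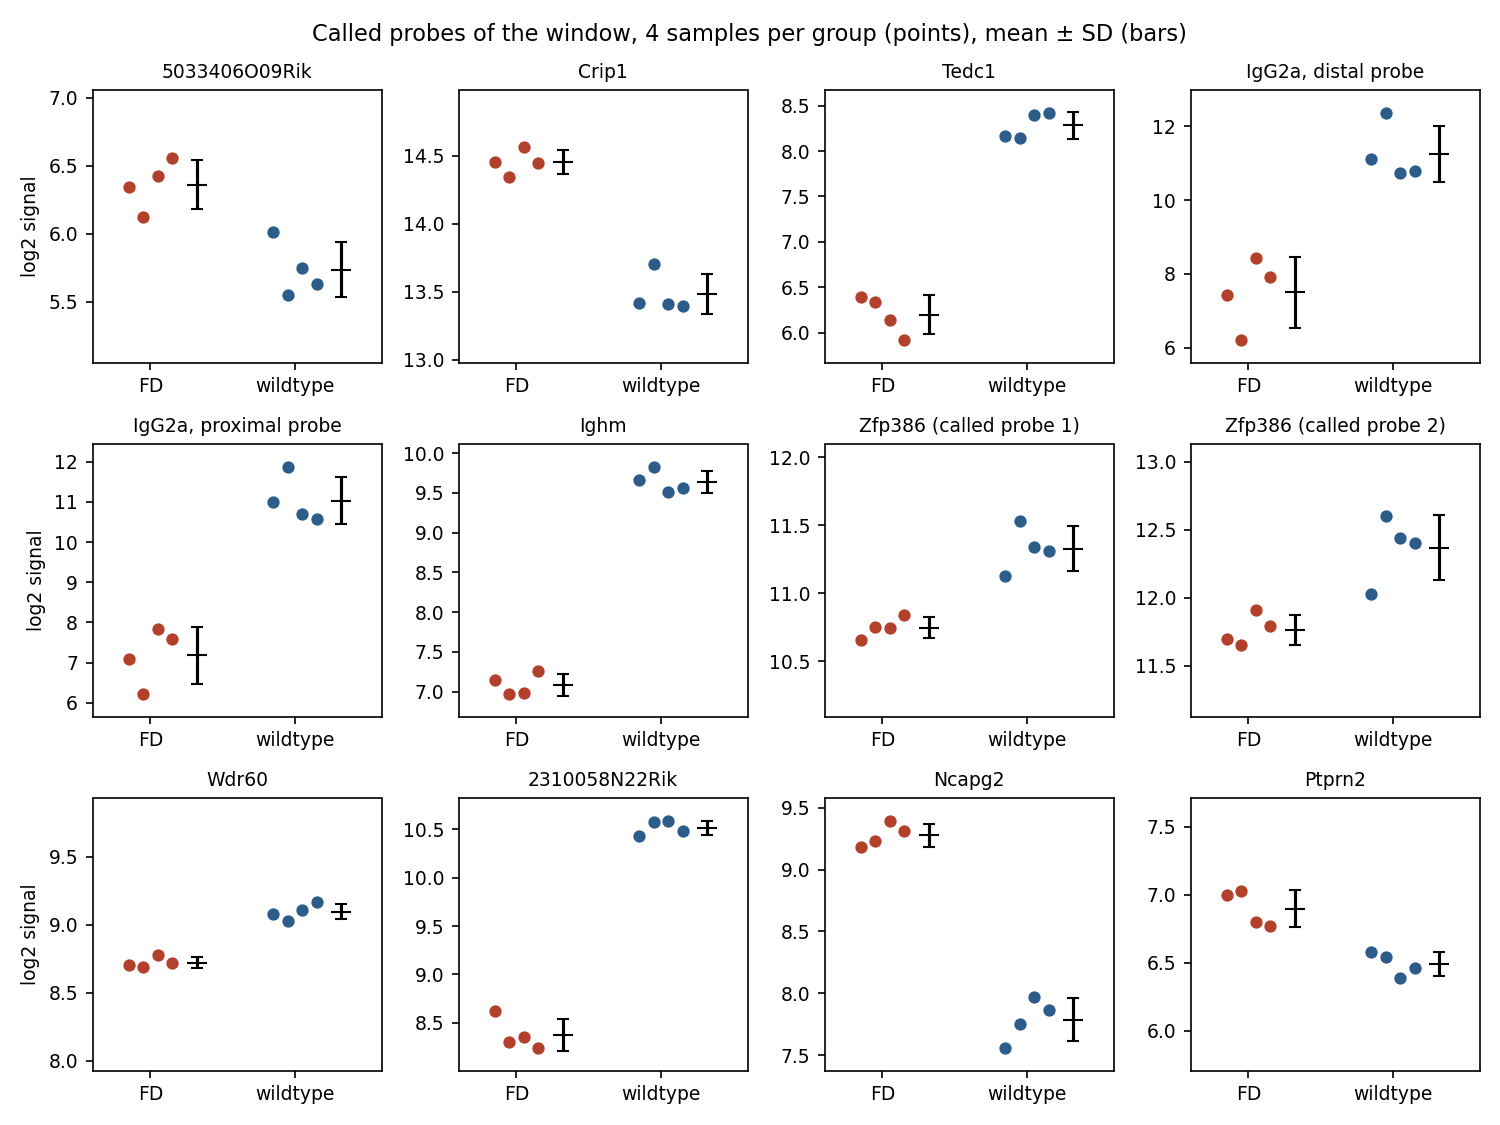
Log2 signal of each of the 4 FD (red) and 4 wildtype (blue) samples for the 12 called probes, with bars for mean ± SD. The axes differ in range between panels, and the groups do not overlap in any panel.

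Beyond the first Ptprn2 probe, 11 of 25 probes were tested and limma called 0 (2 had an unadjusted p under 0.05, and the methods' t-test called 0), with differences between -0.32 and 0.10. Rapgef5, Sp4, Sp8 and Itgb8 lie there, and Tmem196, the last tested gene at 121256995, differed by -0.17. The array has no probe further along the chromosome. At the other limit, the first tested probe inside the window, for Klc1, differed by -0.06, and the last one outside it, for Coa8 at 112972327, by -0.03.

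In the window 10 genes had several tested probes. Their probes stayed within 0.3 log2 units of each other for 5 of them, and of the 4 genes with a called probe only IgG2a had all of its tested probes called. Of 11 tested probes without a gene name limma called 0 (0 had an unadjusted p under 0.05, and the methods' t-test called 0), with differences between -0.12 and 0.17.

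The slide holds its arrays in 2 rows, the first with FD samples 1 to 3 and wildtype sample 1, the second with FD sample 4 and the other wildtype samples. In each row either FD or wildtype had only 1 sample, and the values within a row are given without a test. Within the rows the difference was -2.63 and -2.37 for Ighm, -3.96 and -3.46 for the proximal IgG2a probe and 1.71 and 1.45 for Ncapg2. With the row as a block 9 of the 12 calls were kept, and those of 5033406O09Rik, Ptprn2 and the second Zfp386 probe were lost, while 2 Ahnak2 probes were gained. Crip1, Tedc1, the proximal IgG2a probe, Ighm, 2310058N22Rik and Ncapg2 were called in all 17 alternative settings of the analysis, whereas 5033406O09Rik, the second Zfp386 probe and Ptprn2 were called in 6, 6 and 5.

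**Figure D5:**
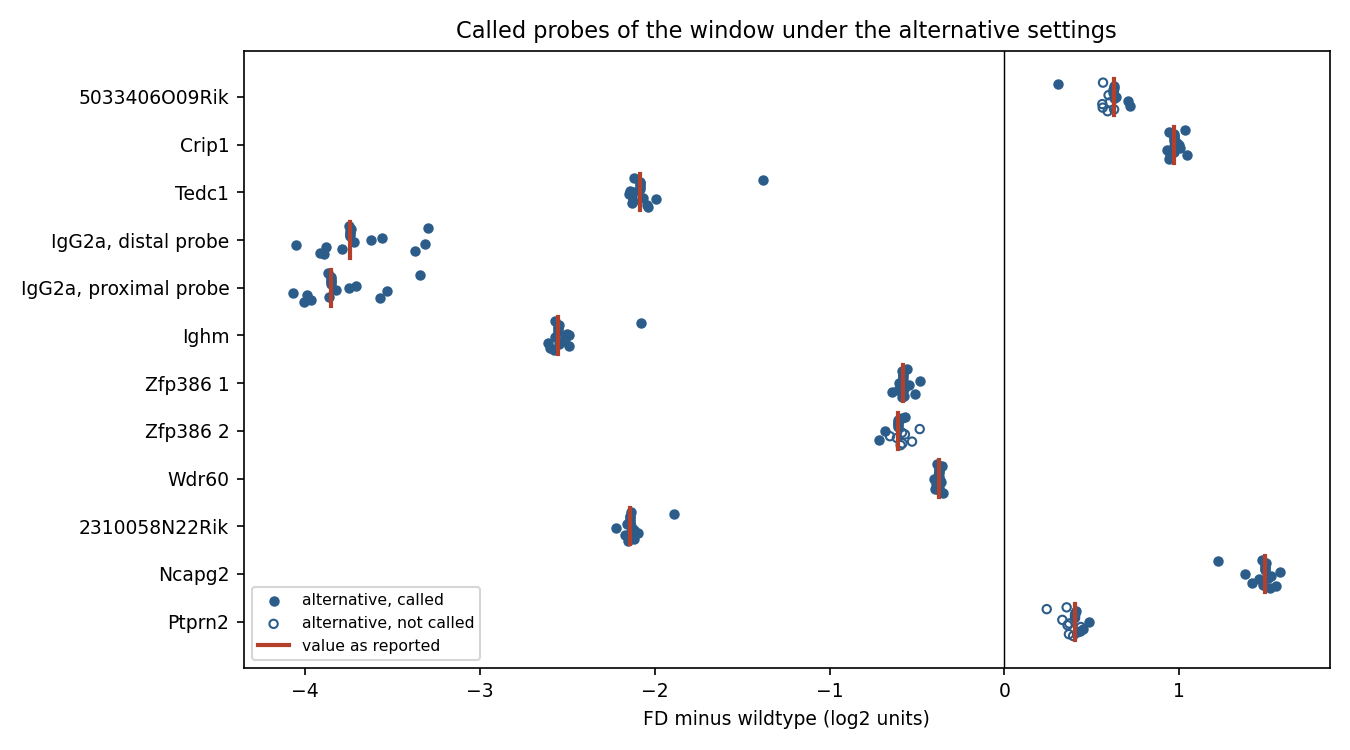
FD minus wildtype difference (log2 units) of the 12 called probes as reported (red bars) and under 17 alternative settings (points, filled where called). Open points gather at 5033406O09Rik, the second Zfp386 probe and Ptprn2.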

How the data were processed

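RNA of 8 samples, 4 FD and 4 wildtype, was measured on the 8 arrays of 1 slide in 1 color. The deposited scanner files hold intensity values per spot, which Agilent Feature Extraction (version 10.7.3.1 in the submitters' processing notes) had adjusted for background and detrended. The authors also deposited log2 values, quantile normalized in GeneSpring.

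From 62976 spots per array, control spots and 93 to 221 outlier spots were left out, and 0 were saturated. The log2 processed signals were averaged per probe and quantile normalized over 55681 probes. FD and wildtype samples were compared with limma 3.58.1 in R 4.3.3 (linear model, empirical Bayes, Benjamini-Hochberg adjustment, adjusted p under 0.05) on 29432 probes well above background on all arrays, with spots of a probe counted as such at a share of at least 0.5. The steps were tested on simulated data. A fold is 2 raised to the size of the difference in mean log2 signal. A lower bound sets the mean of the brighter group against the higher of the lowest signal well above background and the probe's own signal on each array of the dimmer group. Of the window's probes, 71 were named through RefSeq, the others as in the file. Summed list levels are the log2 of the summed signals of the members.

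Replicates are separate pools of 2 mice, and their number limits the precision. The window, the gene lists and the naming rule were chosen with earlier results of these data known. Named are all genes with a called probe and their other probes, heavy chain probes well above background on all arrays of a group, the nearest tested genes on either side, the genes at the limit of the window and, per list, the called and up to 3 of the brightest genes. Alternatives were other scaling, background correction and filters, the authors' table, the methods' t-test, replicate and slide row blocks, array weights and leaving out each sample.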

Additional observations from a re-analysis of the deposited data

Results flagged for a closer look

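In the groups of 4 samples of the named probes, single samples stood apart from the other 3 of their group in 4 of 72 groups looked at, where chance gives about 1 in 20. Crip1 was 13.70 in wildtype sample 2 and 13.40 to 13.42 in the others. Crip2 was 16.81 in FD sample 4 against 17.02 to 17.04. Klc1 was 15.24 in wildtype sample 2 against 15.38 to 15.39, at its brightest probe. Vipr2 was 6.90 in FD sample 1 against 6.78 to 6.80. Outside the probes compared, the BALB/c heavy chain probe had a mean log2 signal of 6.36 in FD, while the wildtype samples, at 2.68 to 4.15, were not well above background.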

How the results depend on the processing

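The limits are those of 4 pooled samples per group, of colony and genotype that cannot be told apart, and of probes near background, which cover most variable segments. In all, 1250 of 1360 values of the 80 named probes under 17 alternatives stayed on the same side of the threshold with the same sign or moved by less than the replicate spread. The 12 calls of the window became 7 in the methods' t-test and also 7 under the replicate block. The calls of the whole array, 904, became 556 with no background filter, 266 in the methods' t-test, 284 under the replicate block and 2102 with array weights. The 1 called B cell or plasma cell marker became 2 with normexp background correction, the slide row as a block or array weights, and 0 with the t-test. Leaving out 1 sample gave 9 to 13 calls in the window, 414 to 1038 on the array and 1 to 1 among these markers, and the array count fell by more than 1.5 times without FD sample 1 (450), FD sample 2 (414), FD sample 3 (482), FD sample 4 (476), wildtype sample 3 (541) or wildtype sample 4 (533). Replicate numbers do not pair the samples: deviations of same-numbered samples correlated at 0.06, -0.25, -0.05 and -0.02, and 1 of 4 numbers was the best match. The cause of these changes was not tested.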
